A study of Mus musculus with 15 samples.

Results

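The 6 mouse liver tumours with Hmgb1 deleted in the liver fell into 3 with a high and 3 with a low level of Sult2a7, a sulfotransferase of liver cells that conjugates steroids and bile acids. A tumour was placed in the high set at 10 or more CPM (counts relative to a common library total), scaled with trimmed-mean factors over the 15 libraries of the series. Hmgb1-deleted tumours 3, 4 and 6 passed and are called Sult2a7-high here. Hmgb1-deleted tumours 1, 2 and 5 did not and are called Sult2a7-low. The sets were drawn from a measured gene of the same libraries, so all values between them are descriptions with no test, given tumour by tumour.

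Liver tumours had been induced in both tumour groups with diethylnitrosamine (DEN), a mutagen, at 25 mg/kg on day 15 after birth. Carbon tetrachloride (CCl4), a liver toxin, was then given once a week at 0.5 µl/g, starting in week 8 and lasting 15 weeks. The Hmgb1-deleted tumours (n = 6) came from Hmgb1 fl/fl mice expressing Albumin-Cre, which acts in hepatocytes and bile duct cells, so other liver cells keep the gene. Floxed tumours (n = 6, Hgmb1fl/fl in the labels) carried the floxed alleles and no deletion, and normal livers (n = 3) came from C57Bl/6 mice with no treatment named. The labels give no sex, litter or sequencing batch, no strain for the floxed and deleted mice, and do not say whether tumours shared a mouse. P-values therefore measure only the spread between these samples. In every comparison of tumour with normal liver, tumour, carcinogen treatment, floxed alleles and any difference in strain cannot be told apart.

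A mature hepatocyte clears ammonia through the urea cycle, makes glucose from amino acids, oxidises fatty acids, and detoxifies drugs and bile acids with cytochrome P450 and conjugating enzymes. These duties are zoned along the lobule, with urea and glucose synthesis around the portal vein and much of the P450 set around the central vein. Dividing hepatocytes and liver tumours lose parts of this programme, and some tumours regain genes of fetal liver such as Afp. The product of Hmgb1 is a chromatin protein that also serves as an alarm signal once dying cells release it.

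Sult2a7 itself was at 19.3, 52 and 15.5 CPM in Hmgb1-deleted tumours 3, 4 and 6, from 364, 967 and 379 counts. It was at 0.476, 3.08 and 0.373 CPM in tumours 1, 2 and 5, from 13, 83 and 10 counts. Tumour 6 was the nearest to the threshold from above, at 15.5 CPM, and tumour 2 from below, at 3.08 CPM, so the gap around it was wide. The members were the same with relative log expression (RLE) factors, with library totals and no factor, and with trimmed-mean factors over the 6 tumours alone. Floxed tumours reached from 0.0497 to 0.353 CPM and normal livers stood at 0.772, 1.18 and 1.13 CPM, so the high set exceeded normal liver. The gene therefore does not mark a return to the normal level. Sult2a genes are close relatives of each other, yet 0 of the 1273 distinct 50-base stretches in the annotated Sult2a7 transcripts occurred in a transcript of another annotated gene.

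Hmgb1 was at 14.8 CPM ± 2.76 (SD, n = 6) in the deleted and 27.9 CPM ± 3.36 (SD, n = 6) in the floxed tumours (exact two-sided permutation test, p = 0.00216, the smallest it can give). The log2(CPM + 1) difference was -0.89. Within the deleted group it was at 14.8, 17.8 and 15.2 CPM in the Sult2a7-high and at 9.59, 15 and 16.2 CPM in the Sult2a7-low tumours. The sets overlapped, and the lowest value belonged to tumour 1.

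Promoters are shown for 4 genes described below. Of these, 3 of cell division were lower in the Sult2a7-high tumours, and 1 of glucose synthesis was higher. Each promoter is the 250 bases before the RefSeq start of the gene on GRCm38.p6, written 5′ to 3′ on the strand of the gene. The counts were made on another build, mm9, so these coordinates belong to the RefSeq table alone. In the division genes the capitals mark CCAAT (the CCAAT box bound by NF-Y) and TTTGAA (the cell cycle homology region found in many genes of mitosis), on either strand. In Pck1 they mark ACGTCA, part of the cyclic AMP response element, through which fasting hormones act on this gene.
Mki67 (chr7:135716380-135716629, minus strand): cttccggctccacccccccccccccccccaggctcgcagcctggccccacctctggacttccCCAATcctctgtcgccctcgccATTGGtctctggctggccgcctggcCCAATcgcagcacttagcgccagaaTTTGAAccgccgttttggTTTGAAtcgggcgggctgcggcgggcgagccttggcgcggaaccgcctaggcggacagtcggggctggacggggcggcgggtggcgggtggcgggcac
Cdc20 (chr4:118437344-118437593, minus strand): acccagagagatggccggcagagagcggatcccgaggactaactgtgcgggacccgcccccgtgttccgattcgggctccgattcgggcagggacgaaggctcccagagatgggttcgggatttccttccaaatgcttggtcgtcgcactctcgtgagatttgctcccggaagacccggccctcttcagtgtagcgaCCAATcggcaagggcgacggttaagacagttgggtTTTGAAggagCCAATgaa
Cenpe (chr3:135212313-135212562, plus strand): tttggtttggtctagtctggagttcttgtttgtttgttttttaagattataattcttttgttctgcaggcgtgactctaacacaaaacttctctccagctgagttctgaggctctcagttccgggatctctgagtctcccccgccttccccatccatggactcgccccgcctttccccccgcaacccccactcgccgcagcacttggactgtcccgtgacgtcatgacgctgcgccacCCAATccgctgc
Pck1 (chr2:173152823-173153072, plus strand): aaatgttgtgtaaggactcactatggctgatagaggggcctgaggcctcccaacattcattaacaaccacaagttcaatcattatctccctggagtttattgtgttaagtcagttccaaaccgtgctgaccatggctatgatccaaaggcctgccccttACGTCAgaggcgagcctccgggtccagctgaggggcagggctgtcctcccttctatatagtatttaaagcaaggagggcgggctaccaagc

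CCAAT stood in the promoters of 15 of 17 measured mitosis genes with a RefSeq window (88.2%) and of 37.5% of 27025 genes. TTTGAA stood in 7 of those 17 (41.2%) and in 18.3% of all genes. ACGTCA was found in 8 of 102 promoters of genes higher in the Sult2a7-high tumours (7.84%) and in 7.29% of all genes, a similar share. It also occurs, in lower case, in the Cenpe window. None of the printed matches overlapped another, and a match describes letters and not a bound site.

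On log2(CPM + 1), a gene was called separated when the lowest tumour of one set lay at least 1, or 2-fold on that scale, above the highest tumour of the other. Of 12688 genes with a mean of at least 1 CPM over the 15 libraries, 143 (1.13%) were separated with the Sult2a7-high tumours higher, Sult2a7 among them, and 99 (0.78%) with these tumours lower. Without any gap, 2528 genes (19.9%) lay higher in all 3 Sult2a7-high tumours than in all 3 low ones, and 2028 (16.0%) lay lower. Leaving out a tumour can only raise such counts, and they rose furthest without tumour 1 or tumour 6. Without tumour 1, 326 genes were separated higher and 343 lower, and without tumour 6 they were 302 and 185.

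The scaling factor moved with the split and bears on these counts. The trimmed-mean factor was 1.15, 1.37 and 1.35 in tumours 1, 2 and 5 and 0.920, 0.980 and 0.927 in tumours 3, 4 and 6. Leaving it out moves all genes of tumour 2 by 0.46 and of tumour 3 by -0.12 on the log2 scale. On library totals, 50 genes were separated higher and 234 lower over 12736 genes, so the higher share of separated genes went from 59.1% to 17.6%. All 143 and 99 genes kept their direction with no overlap on library totals, and 50 and 99 of them remained separated. With no gap asked, 725 of the 12688 genes lay higher and 5775 lower on library totals. The part of the factor in the results was not tested. Library totals of the 6 tumours were 18973246 to 26293378 counts, and 3 counts, the limit that a count of 0 allows, come to 0.11 to 0.161 CPM.

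**Figure D1:**
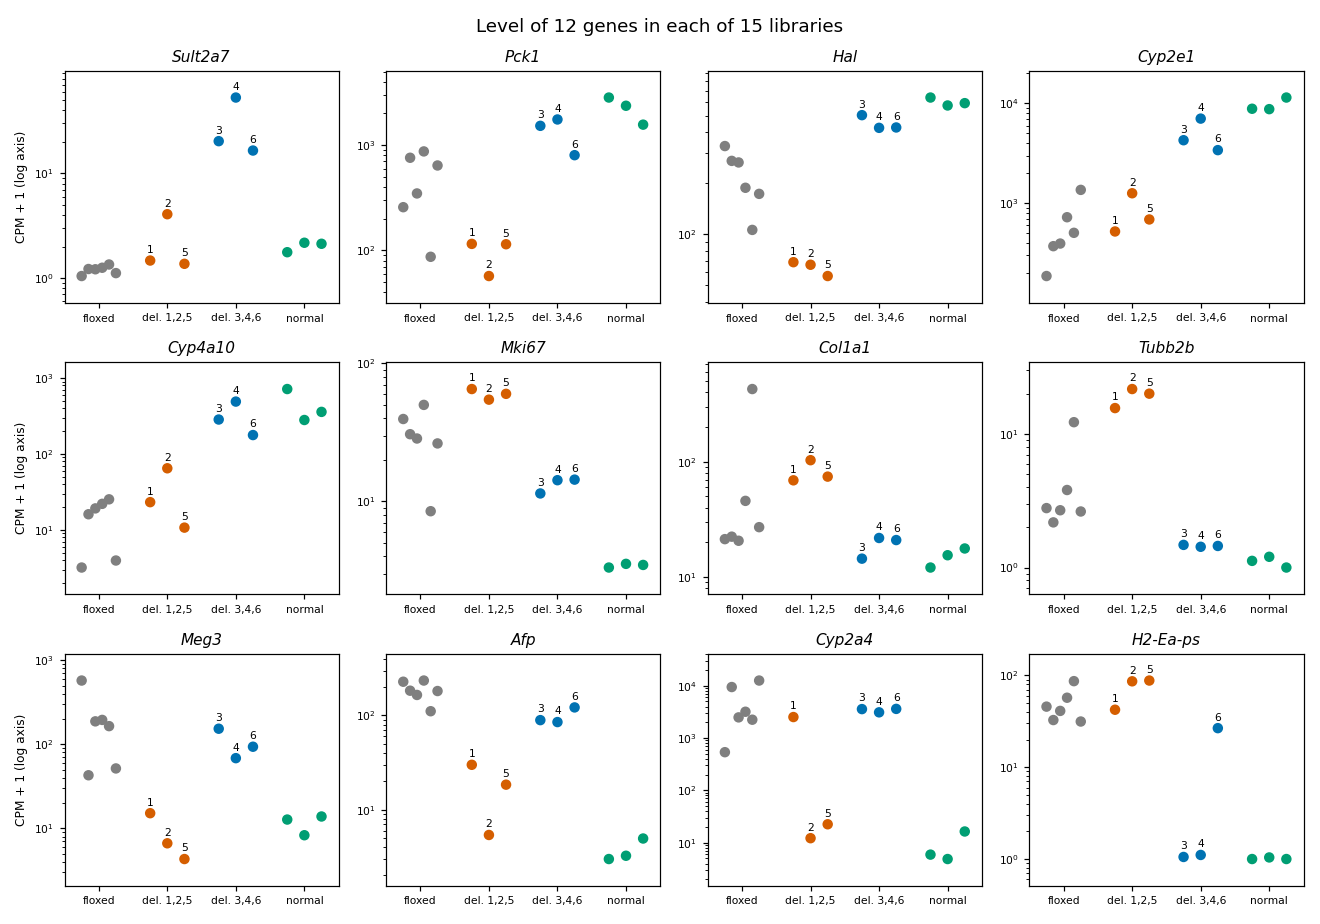
Level of 12 genes as CPM + 1 on a log axis, 1 point per library, for floxed tumours, Hmgb1-deleted tumours 1, 2 and 5, Hmgb1-deleted tumours 3, 4 and 6, and normal livers. Pck1, Hal, Cyp2e1 and Cyp4a10 are high, and Mki67, Col1a1 and Tubb2b low, in tumours 3, 4 and 6, while Meg3 and Afp are also higher there, and Cyp2a4 and H2-Ea-ps divide the sets within.

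Genes of glucose synthesis were higher in the Sult2a7-high tumours. In bulk tissue, here and below, fewer cells of a type and less RNA per cell cannot be told apart. Pck1, the enzyme that commits carbon to glucose, was at 1526, 1754 and 802 CPM in tumours 3, 4 and 6 and at 114, 56.1 and 113 CPM in tumours 1, 2 and 5. Normal livers were at 2835, 2368 and 1566 CPM, and floxed tumours had a lowest, median and highest value of 86, 494 and 871 CPM. Tumour 4 thus lay inside the normal range and tumour 3 just under it, while the Sult2a7-low tumours lay near the lowest floxed tumour. Its promoter is the one shown above with ACGTCA. G6pc, which releases free glucose from the cell, was at 493, 506 and 647 CPM against 80.4, 43.8 and 72.2 CPM, where values before the word against are those of tumours 3, 4 and 6, in that order, and values after it those of tumours 1, 2 and 5, here and from here on. Its normal level spread from 231 to 2035 CPM, and the 3 high tumours were inside it. Sds, which turns serine into pyruvate, was at 147, 183 and 97.2 CPM against 10.9, 17.1 and 7.09 CPM, and Tat, the tyrosine aminotransferase, at 770.3, 872 and 791 CPM against 244, 201 and 313 CPM. Ppp1r3c, which brings a phosphatase to glycogen, was at 88.5, 63.9 and 55.5 CPM against 10.7, 10.5 and 7.2 CPM. Of 15 measured genes of gluconeogenesis and glycogen, 5 were separated higher and 0 lower, beside 1.13% and 0.78% of all genes. On library totals 3 of them remained separated, and the level of the whole list overlapped between the sets.

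Nitrogen handling showed the same order. Over 14 measured genes of the urea cycle and ammonia handling, 7 were separated higher, beside 1.13% of all genes. On library totals 2 remained separated, and the gaps of Ass1 and Gls2 fell to 0.95 and 0.73 on the log2 scale. The median log2 difference from normal liver was -0.42, -0.34 and -0.71 in tumours 3, 4 and 6 and -2.08, -2.21 and -2.2 in tumours 1, 2 and 5. Floxed tumours lay from -2.27 to -1.14. The low set was thus at or below most floxed tumours for this list. Ass1, which makes argininosuccinate in the cycle, was at 118, 130.1 and 93.4 CPM against 29.2, 32.3 and 23.4 CPM. Gls2, the liver glutaminase, was at 394, 389 and 263 CPM against 53.5, 89.8 and 109 CPM, and Oat, an ornithine aminotransferase of the cells around the central vein, at 654, 1225 and 573 CPM against 68.1, 146 and 102 CPM. Normal livers held 789, 636 and 1443 CPM of Oat, so tumours 3 and 4 were inside the normal range and tumour 6 just under it.

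Amino acid breakdown held 6 separated genes of 25, beside 1.13% of all genes, or 3 on library totals, Hal and Hpd among them. With no gap asked, 22 of the 25 lay higher, beside 19.9% of all genes. Hal, the histidine ammonia-lyase, was at 503, 424 and 426 CPM in the Sult2a7-high tumours. It was at 67.4, 65.1 and 55.7 CPM in the Sult2a7-low tumours, below every floxed tumour, which ranged from 105 to 330.5 CPM. Hpd, which works on tyrosine, was at 924, 1252 and 669 CPM against 73.9, 206 and 79.3 CPM, with 1869, 1735 and 2388 CPM in normal livers. Both of these and Pck1 were lower in floxed tumours than in normal liver, samples that the split did not use. For Pck1 the log2 fold change there was -2.18 ± 0.56 (SE, edgeR quasi-likelihood test, adjusted p = 0.009). For Hal it was -1.45 ± 0.29 (edgeR adjusted p = 0.00232), and for Hpd -3.49 ± 0.54 (edgeR adjusted p = 0.000556).

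Genes of both zones were higher in the Sult2a7-high tumours. Among periportal genes 6 of 18 were separated higher and among pericentral genes, which include Wnt and beta-catenin targets, 7 of 21, beside 1.13% of all genes. On library totals 3 and 1 remained separated. The pericentral list stood at -0.95, -0.21 and -1.09 in tumours 3, 4 and 6, so tumour 4 was nearest to normal liver. It stood at -2.04, -1.76 and -2.29 in tumours 1, 2 and 5. The periportal list stood at -0.40, -0.33 and -0.74 against -1.39, -1.7 and -1.73. The levels of both lists lay higher in all 3 Sult2a7-high tumours on library totals too.

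Cytochrome P450 enzymes of drug metabolism were separated higher in 9 of 20 and lower in 0, beside 1.13% and 0.78% of all genes. On library totals 2 remained separated, and the log2 gaps of Cyp2e1 and Cyp1a2 fell to 0.87 and 0.98. Cyp2e1, which activates both toxins used here, was at 4277, 7049 and 3402 CPM in tumours 3, 4 and 6 and at 519, 1256 and 685 CPM in tumours 1, 2 and 5. Normal livers were at 8853, 8772 and 11468 CPM and floxed tumours at 185, 448 and 1358 CPM (lowest, median and highest). No tumour reached the normal level, and tumour 2, the highest of the low set, was near the highest floxed tumour. Cyp1a2, which oxidises aromatic amines, was at 286, 568 and 315 CPM against 54.6, 96.9 and 75.2 CPM, and Cyp2c29, a P450 with close copies, at 759, 986 and 576 CPM against 205, 183 and 55.7 CPM. The list level was -0.57, -0.23 and -1.11 against -1.76, -2.33 and -3.07.

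The Cyp4 fatty acid hydroxylases, many of them targets of the lipid sensor PPAR-alpha, held 5 separated genes of 11, beside 1.13% of all genes. On library totals 1 remained, and the log2 gaps of Cyp4a10 and Cyp4a14 fell to 0.90 and 0.69. Cyp4a10 was at 284, 489.7 and 177 CPM in the high set and at 22.2, 63.8 and 9.7 CPM in the low set. Cyp4a14 was at 113, 201 and 107 CPM against 10.5, 44.5 and 2.54 CPM, and at 1837, 564 and 713 CPM in normal livers. For Cyp4a14 even tumour 4 lay under the lowest normal liver, while Cyp4a10 in tumours 3 and 4 lay inside the normal range of 279.5 to 717 CPM. Of 24 genes of fatty acid oxidation and ketogenesis, 1 was separated higher and 1, Fgf21, lower, beside 1.13% and 0.78% of all genes. With no gap asked, 17 lay higher under trimmed-mean scaling, beside 19.9% of all genes. On library totals 4 did, beside 725 of 12688 genes, and the list's levels overlapped.

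Genes of conjugation and bile acid transport were also higher. Among glucuronosyl- and glutathione transferases 7 of 25 were separated higher, or 3 on library totals, beside 1.13% of all genes. Ugt1a9 was at 24.2, 35.9 and 20.2 CPM against 6.7, 4.64 and 2.01 CPM, and Ugt2b38 at 10.8, 20.8 and 13.4 CPM against 1.76, 0 and 1.87 CPM, with 0 counts in tumour 2. Bile acid synthesis and transport held 3 of 21, beside 1.13% of all genes, or 1 on library totals, all of them transport or activation proteins. Slc10a1, the main bile salt uptake carrier, was at 436, 474 and 208 CPM against 97.9, 75.2 and 19.4 CPM. Slco1b2, an anion carrier, was at 540.3, 714 and 404 CPM against 164, 179.6 and 132 CPM. Slc27a5, the bile acyl-CoA synthetase, was at 791, 776 and 614 CPM against 225, 148 and 72.8 CPM. Tumour 5 was the lowest of the 6 for each of the 3. Among complement and coagulation factors 1 of 24 was separated, beside 1.13% of all genes, and 0 on library totals. It was C8b, at 304, 319 and 309.7 CPM against 111, 143 and 99.8 CPM. Genes with near-identical copies, such as those of the Ugt, Cyp2c, Cyp4a, Cyp2a and Mup families, are uncertain because the counting of reads with several matches is not given in the sources used here.

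Male-biased liver genes were higher in the Sult2a7-high tumours, and so were female-biased ones. Of 18 male-biased genes 6 were separated higher, or 3 on library totals, beside 1.13% of all genes, among them Elovl3, a fatty acid elongase, at 25.1, 37 and 150.1 CPM against 3.04, 7.62 and 6.94 CPM. Nudt7, a peroxisomal coenzyme A hydrolase, was at 349.8, 476 and 418 CPM against 72.3, 84.9 and 68.3 CPM. Normal livers held 1016, 680.3 and 229.6 CPM of Elovl3, above every tumour, with tumour 6 the nearest. Major urinary proteins, pheromone carriers of male liver, had 3 of 14 separated higher, beside 1.13% of all genes, and 0 on library totals. Mup17 was at 38.5, 57.7 and 63.4 CPM against 7.21, 17.6 and 6.79 CPM, with 163, 379 and 244 CPM in normal livers. Of 12 female-biased genes 2 were separated, both also higher, beside 1.13% of all genes, and on library totals Cyp2b9 remained. Cyp2b9 was at 75.8, 22.4 and 137 CPM against 8.64, 0.334 and 0.0746 CPM, with 6.7, 1.38 and 4.63 CPM in normal livers. Cyp17a1, a steroid-making enzyme, was at 11.1, 4.79 and 4.06 CPM against 1.17, 0.817 and 1.49 CPM with 1.62, 3.14 and 3.0 CPM in normal livers. All 15 libraries held RNA of the Y-linked Ddx3y, at 55.1 to 84.6 CPM in the 6 deleted tumours, and Xist was at most 0.323 CPM in those 6.

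**Figure D2:**
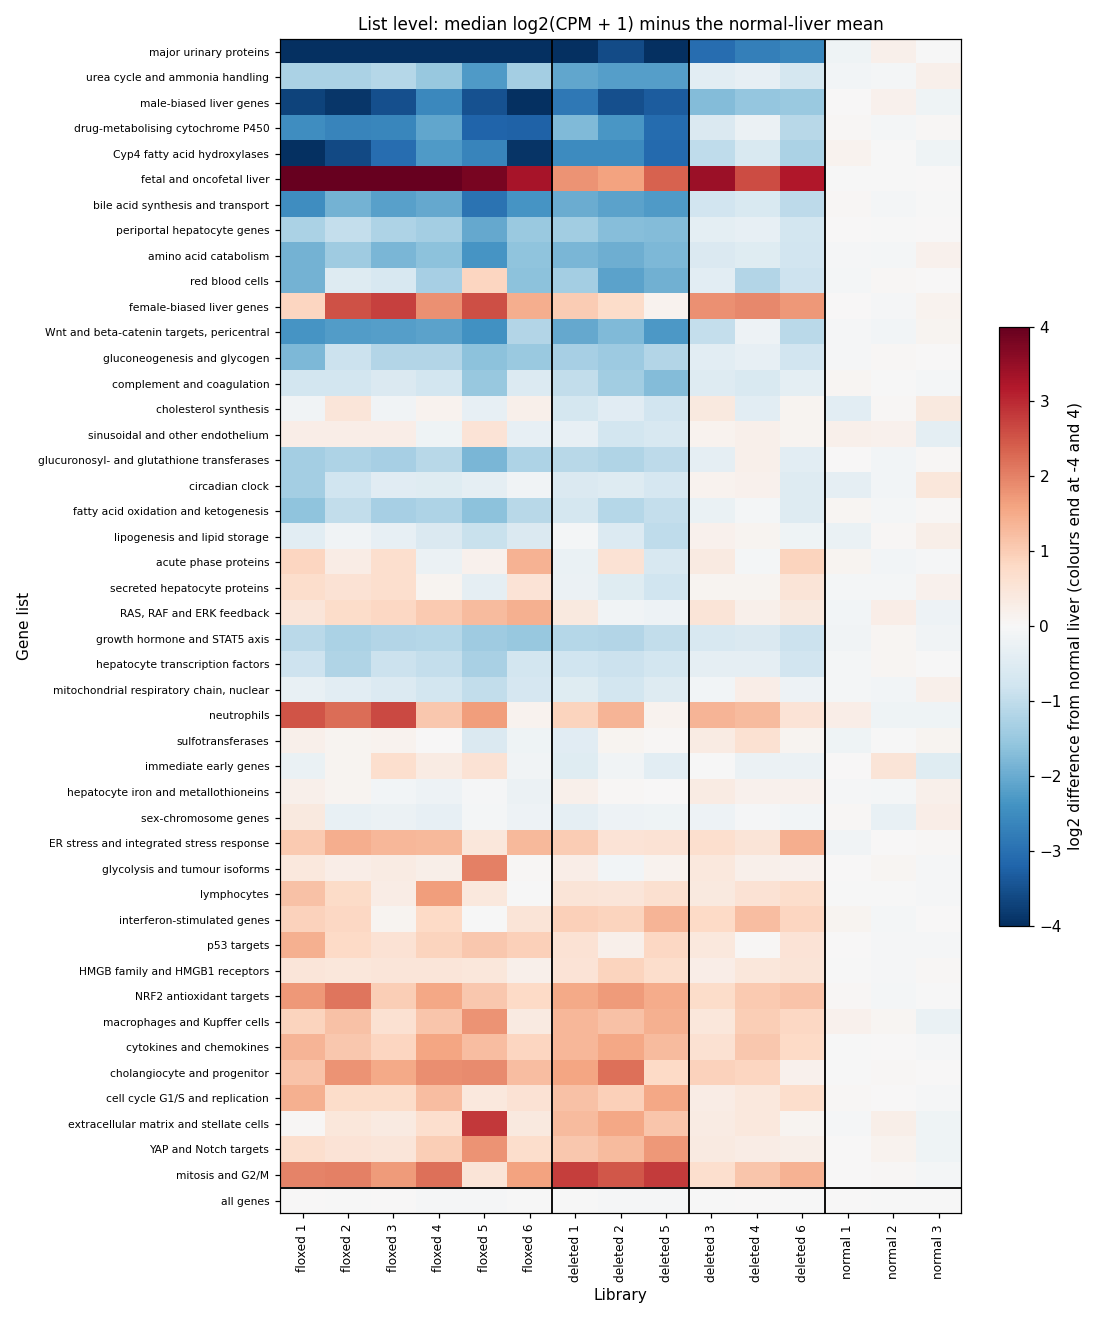
Median difference from the mean of the normal livers in log2(CPM + 1) over the measured members of 45 gene lists (rows) in each of 15 libraries (columns). Colours end at -4 and 4. Lists such as the urea cycle, amino acid catabolism, P450 and bile acid genes are paler, that is nearer to normal liver, in tumours 3, 4 and 6 than in tumours 1, 2 and 5, those of sulfotransferases, glycolysis and lipogenesis are not, and the mitosis list is darkest in tumours 1, 2 and 5.

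Nuclear genes of the mitochondrial respiratory chain differed by little but together. Of 20 genes 0 were separated. With trimmed-mean factors 19 lay higher in all 3 Sult2a7-high tumours, beside 19.9% of all genes. On library totals 1 did, beside 725 of 12688 genes. Atp5b, a subunit of the ATP synthase, was at 1068, 1042 and 941 CPM against 733, 694 and 833 CPM, and at 1467, 1487 and 1474 CPM in normal livers. This list thus rested on the scaling, and its levels overlapped on library totals.

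The words liver-like and dedifferentiated fitted some lists and not others. Hepatocyte transcription factors overlapped between the sets, with levels of -0.35, -0.34 and -0.76 in tumours 3, 4 and 6 and -0.80, -0.86 and -0.73 in tumours 1, 2 and 5. Hnf4a, a master regulator of the hepatocyte, was at 688, 578 and 885 CPM against 658, 410.4 and 531 CPM. Alb, the gene of serum albumin, was at 141215, 102811 and 125731 CPM against 104414, 55990.1 and 76674 CPM, which also overlapped, so all 6 tumours carried the defining hepatocyte transcript at a high level. The list of 16 secreted hepatocyte proteins that holds Alb did not overlap. It stood at 0.10, 0.11 and 0.52 against -0.23, -0.48 and -0.81. In it 7 genes lay higher with no overlap and 0 lower, beside 19.9% and 16.0% of all genes. On library totals 4 lay higher, and the list levels still did not overlap. Of the 18 transcription factors 1 was separated, beside 1.13% of all genes, and 0 on library totals. It was Nr0b2, a repressor of bile acid synthesis, at 35.9, 54.2 and 20.8 CPM against 9.44, 6.8 and 6.08 CPM.

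Fetal and oncofetal genes were mixed, and those with the widest gaps ran against the label. Of 22 such genes 5 were separated with the Sult2a7-high tumours higher and 1 lower, beside 1.13% and 0.78% of all genes. With no gap asked, 5 lay higher and 5 lower, beside 19.9% and 16.0%. On library totals 4 were separated higher and 2 lower. Afp, the alpha-fetoprotein, was at 88.2, 84.1 and 121 CPM in tumours 3, 4 and 6 and at 28.9, 4.38 and 17.4 CPM in tumours 1, 2 and 5. Normal livers held 1.99, 2.24 and 3.94 CPM and floxed tumours 109.9, 181 and 234 CPM (lowest, median and highest), so every floxed tumour exceeded every Sult2a7-low one, and tumour 2 was close to normal liver. The imprinted non-coding RNAs Meg3 and Rian, which lie in 1 gene cluster, ranked the 6 tumours alike. Meg3 was at 152, 67.5 and 92.6 CPM against 14.2, 5.65 and 3.32 CPM, with 11.7, 7.29 and 12.9 CPM in normal livers, and Rian at 48.5, 23.5 and 46.8 CPM against 5.09, 2.04 and 1.6 CPM, with 3.13, 2.16 and 5.12 CPM in normal livers. Tumours 2 and 5 were below every normal liver for both. Tff3, a trefoil peptide of mucous epithelium, was at 39.8, 51.8 and 24.3 CPM against 3.07, 0.929 and 0.522 CPM.

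Afp, Meg3, Rian and Tff3 were all higher in floxed tumours than in normal liver. For Afp the log2 fold change was 6.08 ± 0.37 (SE, edgeR adjusted p = 2.43e-06), and for Meg3 4.24 ± 0.86 (edgeR adjusted p = 0.0027). For these genes the Sult2a7-high tumours were therefore the ones nearer to the floxed tumours. The list as a whole was at 3.42, 2.62 and 3.22 in tumours 3, 4 and 6, at 1.8, 1.61 and 2.36 in tumours 1, 2 and 5, and at 3.30 to 5.14 in floxed tumours. On library totals the list's levels overlapped between the sets. H19, an imprinted growth-linked RNA, did not follow Meg3. It was at 18.4 CPM in tumour 1 and at 0.377 to 1.49 CPM in the other 5, while floxed tumours reached from 10.4 to 239 CPM.

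Cell division genes were lower in the Sult2a7-high tumours. All 22 measured genes of mitosis lay lower in tumours 3, 4 and 6 than in tumours 1, 2 and 5, beside 16.0% of all genes, and 9 of them were separated. On library totals 19 were separated, beside 234 of 12736 genes separated lower there. Mki67, whose protein marks dividing cells, was at 10.4, 13.2 and 13.4 CPM in the Sult2a7-high and at 64.1, 53.6 and 59.1 CPM in the Sult2a7-low tumours. Floxed tumours had 7.49, 28.6 and 49 CPM (lowest, median and highest) and normal livers 2.32, 2.53 and 2.46 CPM. The Sult2a7-low tumours were above every floxed tumour, and the high ones were between floxed tumours and normal liver, apart from the lowest floxed tumour.

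The 2 other promoters shown belong to genes with the same order. Cdc20, which starts the destruction of mitotic cyclins, was at 2.44, 3.01 and 2.91 CPM against 15.8, 11.4 and 15.4 CPM. Cenpe, a motor of the kinetochore, was at 1.27, 1.61 and 1.8 CPM against 10.6, 8.84 and 7.27 CPM. Ccnb2, a mitotic cyclin, was at 2.97, 2.85 and 4.68 CPM against 20.5, 14.8 and 15.2 CPM, and Cdca3, which triggers mitotic entry, at 6.21, 6.67 and 5.54 CPM against 28.1, 28.4 and 31 CPM. For each of these 4 genes the Sult2a7-low tumours exceeded the highest floxed tumour but for tumour 5 in Cenpe.

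Genes of the G1/S step and of replication had smaller gaps. None of 19 was separated, and 12 of 19 lay lower in all Sult2a7-high tumours with no overlap, beside 16.0% of all genes. On library totals 2 were separated and 17 did not overlap, but there 5775 of 12688 genes lay lower with no overlap. Ccnd1, the cyclin of early G1, was at 77.3, 49.9 and 50.2 CPM against 102, 144 and 97.4 CPM, a gap of under 2-fold. The mitosis list level was 0.68, 1.11 and 1.38 in tumours 3, 4 and 6 and 2.76, 2.48 and 2.78 in tumours 1, 2 and 5. In floxed tumours it ran from 0.50 to 2.21, and all 22 genes were called higher there than in normal liver (edgeR adjusted p under 0.05, beside 24.9% of all 13784 genes tested). Tumour 6 had the highest mitosis level of the high set.

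Matrix genes were lower too. Of 25 genes of extracellular matrix and stellate cells 7 were separated lower in the Sult2a7-high tumours and 0 higher, beside 0.78% and 1.13% of all genes. Col1a1, a chain of fibrillar collagen I, was at 13.4, 20.8 and 19.9 CPM against 68.1, 102 and 73.4 CPM, with 11.1, 14.5 and 16.7 CPM in normal livers. The high set thus lay at the normal level or a little above it. Col3a1 was at 41.5, 60.8 and 52.1 CPM against 185, 186 and 152 CPM. Col4a1 of the basement membrane was at 66.4, 59.4 and 62.3 CPM against 188, 202 and 225 CPM, and Sparc, a collagen-binding protein, at 87.1, 85.4 and 98.7 CPM against 247, 426 and 394 CPM. Floxed tumours spread from 19.6 to 427 CPM in Col1a1, whose highest value, floxed tumour 5, stood far from the other 5.

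Targets of YAP and Notch, pathways of growth control and of bile duct fate, had 3 of 16 separated lower and 0 higher. Over all genes these shares were 0.78% and 1.13%. Ankrd1, a YAP target, was at 1.01, 0.646 and 1.23 CPM against 5.49, 111 and 173 CPM, so tumours 2 and 5 were high and tumour 1 much less so. Jag1, a Notch ligand, was at 7.6, 8.72 and 7.83 CPM against 20.3, 48.5 and 109 CPM, and Jub, a LIM protein of the Hippo pathway, at 17.6, 12.3 and 20.6 CPM against 49.2, 73.5 and 85.5 CPM. Of 21 cytokine and chemokine genes 2 were separated lower and 0 higher. With no gap asked, 9 lay lower and 2 higher, beside 16.0% and 19.9% of all genes. The list's median levels did not overlap, but its summed level did, at 641, 745 and 554 CPM against 612, 762 and 569 CPM. The 2 separated were Ccl2, which draws monocytes, at 3.66, 5.11 and 3.77 CPM against 15.9, 66.2 and 28.5 CPM, and Cxcl14, at 3.19, 3.28 and 2.63 CPM against 52.9, 69.6 and 17.8 CPM. Fgf21, a hormone made by liver under stress and fasting, was at 1.17, 3.07 and 6.4 CPM against 23.5, 65.2 and 72 CPM. Igfbp3, a carrier of insulin-like growth factors, was at 20.7, 23.8 and 15.5 CPM against 61, 75.7 and 188 CPM. It went against its list, the growth hormone and STAT5 axis. Of those 16 genes 8 lay higher with no overlap and 1 lower, beside 19.9% and 16.0% of all genes. In each direction 1 was separated, and on library totals the list levels overlapped.

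Some of the largest gaps downward lay outside these lists. Tubb2b, a beta-tubulin of young neurons, was at 0.478, 0.43 and 0.451 CPM in the Sult2a7-high and at 14.7, 20.8 and 19.1 CPM in the Sult2a7-low tumours, while normal livers held 0.122, 0.204 and 0 CPM. Spon2, a secreted matrix protein, was at 9.67, 5.06 and 11.9 CPM against 86.9, 125 and 145 CPM. Pak6, a kinase, was at 6.43, 9.42 and 4.31 CPM against 64.7, 89.96 and 91.4 CPM, and Ank2, a membrane anchor, at 1.12, 1.08 and 1.93 CPM against 16.3, 33.1 and 15.9 CPM. Floxed tumours stayed at or under 27.8, 13.8 and 2.21 CPM for Spon2, Pak6 and Ank2. All 3 Sult2a7-low tumours thus exceeded every floxed tumour and every normal liver in these 3 genes.

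Some markers of other cells also moved with the split. The summed level of 25 matrix and stellate genes was 823, 854 and 728 CPM in tumours 3, 4 and 6 and 1601, 1881 and 1597 CPM in tumours 1, 2 and 5, and none of the 25 was at 0 in all 6. Floxed tumours had 800.2 to 4492 CPM and normal livers 581 to 855 CPM of this sum. The sum over 19 macrophage genes was 871, 929 and 1189.6 CPM against 1875, 6828 and 2007 CPM, with 976 to 3123 CPM in floxed tumours. Spp1, counted both there and among cholangiocyte genes, made up much of it at 265, 195 and 389 CPM against 943, 6024 and 1126 CPM. The resident Kupffer cell gene Timd4 went the other way, at 6.53, 7.91 and 8.12 CPM against 2.6, 0.595 and 0.821 CPM. Of the 19 macrophage genes 8 lay lower with no overlap and 2 higher, beside 16.0% and 19.9% of all genes. The sum over 21 cholangiocyte and progenitor genes was 1546, 1272 and 1930.1 CPM against 2626, 8418 and 2727 CPM, and Spp1 was again a large part of it in the low set. The median level of that list overlapped between the sets, at 0.92, 0.87 and 0.16 against 1.59, 2.21 and 0.78. In that list Sox9, a duct and progenitor factor, was at 6.9, 4.79 and 6.56 CPM against 15.8, 52.8 and 15.9 CPM. Tspan8, a tetraspanin, was higher in the Sult2a7-high tumours, at 103, 47.9 and 347 CPM against 21.5, 16.8 and 1.57 CPM.

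Endothelial genes summed to 613, 662 and 671 CPM against 512, 395 and 466 CPM, with Ehd3, a gene of liver and kidney endothelium, at 60.02, 57.8 and 64.2 CPM against 28.2, 16.6 and 16.3 CPM. Lymphocyte genes summed to 48.5, 50.3 and 47.4 CPM against 23.3, 38.9 and 32.4 CPM. Matrix and macrophage sums were thus lower in all 3 Sult2a7-high tumours, on library totals too. Much of the macrophage difference lay in Spp1, also a cholangiocyte gene, so that sum does not by itself show fewer macrophages. Endothelial and lymphocyte sums were higher in all 3, but on library totals they overlapped, at 564, 648 and 622 CPM against 589.8, 542 and 628 CPM and at 44.6, 49.2 and 44 CPM against 26.9, 53.5 and 43.7 CPM. None of the matched macrophage, cholangiocyte, endothelial and lymphocyte genes was at 0 in all 6 tumours. The part of these cells in the metabolic and division results was not tested.

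Floxed tumours and normal livers, which the split did not use, were tested against each other. This does not test the split itself, and the separated genes were chosen for a wide gap. Of 13784 genes tested, 6714 differed (48.7%), 3437 higher (24.9%) and 3277 lower (23.8%) in floxed tumours (edgeR quasi-likelihood test, adjusted p under 0.05). Of the 143 genes separated higher in the Sult2a7-high tumours, 102 (71.3%) were lower in floxed tumours than in normal liver, 12 higher and 29 not called. Of the 99 genes separated lower, 97 were tested, and 77 of these (79.4%) were higher in floxed tumours, 0 lower and 20 not called. Over all measured genes tested the shares were 25.1% lower and 24.3% higher. Median log2 fold changes were -2.07 over the 143 and 2.58 over the 97. Most of the metabolic lists described above went the way of the 143 genes. Lower in floxed tumours were 11 of 15 genes of gluconeogenesis and glycogen, 10 of 14 of the urea cycle, 20 of 25 of amino acid breakdown, 15 of 20 P450 genes and 17 of 21 bile acid genes. Higher, as for most of the 99, were 17 of 21 cytokine genes and 9 of 16 YAP and Notch targets. For matrix genes it was 7 of 25, near the share of all genes. Other lists ran the opposite way, higher in floxed tumours and with levels higher in all 3 Sult2a7-high tumours too. They were 20 of 21 fetal genes, 10 of 12 female-biased genes and 5 of 16 secreted hepatocyte proteins, with 0, 1 and 1 genes lower in floxed tumours, and the last of these counts is not far from the share of all genes. The 12 genes that were higher in both the Sult2a7-high and the floxed tumours include Afp, Meg3, Rian and Tff3.

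**Figure D3:**
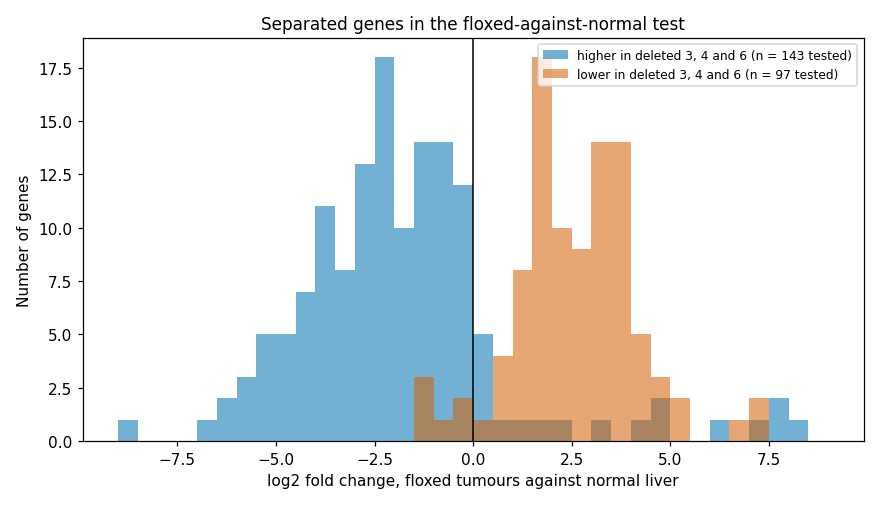
Number of genes (vertical axis) by log2 fold change of floxed tumours against normal liver (horizontal axis), for the 143 genes separated higher and the 97 tested genes separated lower in tumours 3, 4 and 6. The 143 centre on a median of -2.07 and the 97 on 2.58, with a small group of the 143 far to the right.

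Closeness to normal liver was uneven within the separated genes. Of the 143, the number within 2-fold of the normal mean was 86, 100 and 73 in tumours 3, 4 and 6 and 17, 14 and 13 in tumours 1, 2 and 5, and ran from 15 to 41 in floxed tumours. Of the 99, the number was 70, 62 and 60 against 4, 4 and 5, and from 14 to 37 in floxed tumours. These genes were chosen by the same split, so the counts describe them only. In the Sult2a7-low tumours the number was thus near or under that of the lowest floxed tumour for the first set of genes and under every floxed tumour for the second.

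A wider measure placed each tumour on a line from the floxed mean (0) to the normal mean (1), as the median over genes called in that comparison with at least a 2-fold change. Over 1537 genes lower in floxed tumours the positions were 0.529, 0.575 and 0.400 in tumours 3, 4 and 6 and 0.154, 0.142 and 0.120 in tumours 1, 2 and 5. Over 2305 genes higher in floxed tumours they were 0.486, 0.471 and 0.391 against 0.163, 0.104 and 0.158. Single floxed tumours lay from -0.106 to 0.102 over both sets of genes. The floxed tumours chose these genes and set the 0, so a small value above 0 in another tumour does not show that it was nearer to normal liver than they were. On library totals the order changed for the first set of genes: tumours 2 and 5 moved to 0.471 and 0.439, above tumour 6 at 0.392. For the second set they moved the other way, to -0.222 and -0.144, further from tumours 3, 4 and 6.

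**Figure D4:**
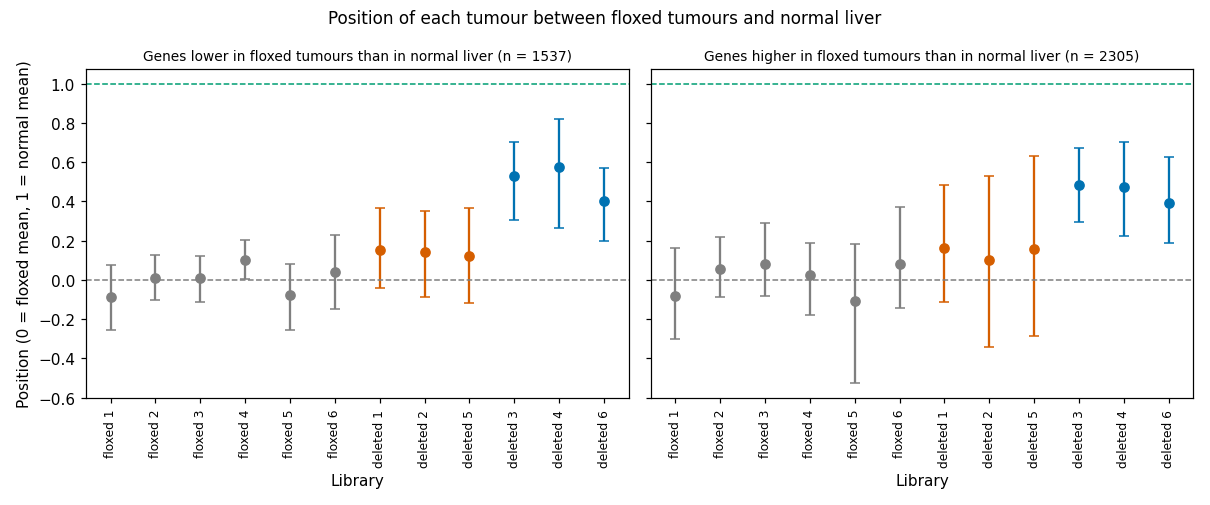
Position of each tumour (vertical axis, 0 for the floxed mean and 1 for the normal mean) for each library (horizontal axis), as the median with quartiles over 1537 genes lower and 2305 genes higher in floxed tumours. Tumours 3, 4 and 6 lie between 0.391 and 0.575, tumours 1, 2 and 5 between 0.104 and 0.163.

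Over all measured genes with trimmed-mean factors, the main axis of variation among the 6 tumours placed the sets apart, with tumour 1 in between. The share of variance that goes with the split itself was not computed. The first principal component held 59.1% of the variance and placed tumours 3, 4 and 6 at 41.4, 36.7 and 30.9 and tumours 1, 2 and 5 at -10.7, -45.4 and -52.9. The second held 18.4% and set tumour 1, at -38.2, apart from tumour 5, at 17.3, and tumour 4, at 24.3. As root mean square log2 difference, tumours 3, 4 and 6 lay 0.359 to 0.540 from each other, and tumours 1, 2 and 5 lay 0.467 to 0.683. Tumour 1 was as near to tumour 6 (0.591) as to tumour 2 (0.595). Distances to the normal mean were 0.723, 0.733 and 0.793 in tumours 3, 4 and 6 and 1.01, 1.09 and 1.12 in tumours 1, 2 and 5. To the floxed mean tumour 1 was the nearest, at 0.554, followed by tumour 6 at 0.588.

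**Figure D5:**
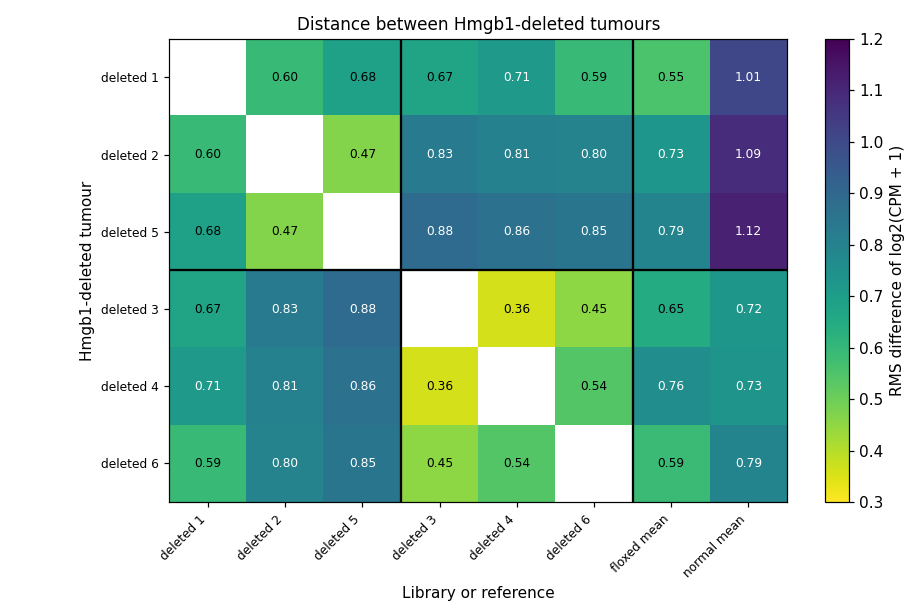
Root mean square difference in log2(CPM + 1) over measured genes between each Hmgb1-deleted tumour (rows) and the other tumours, the floxed mean and the normal mean (columns). The smallest distance, 0.359, is between tumours 3 and 4, and tumour 1 is about as far from tumour 6 as from tumour 2.

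Several genes divided the sets within. They were taken by the same rule for each tumour, so their number says nothing of which tumour differed most. Cyp2a4, a female-biased steroid hydroxylase, was at 2517 CPM in tumour 1, as in the Sult2a7-high tumours at 3570.4, 3096 and 3604 CPM, while tumours 2 and 5 held 11.2 and 21.5 CPM, close to normal livers at 4.92, 3.87 and 15.4 CPM. Gldn, a gliomedin gene, had the same layout, with 58.6 CPM in tumour 1, 1.0 and 0.783 CPM in tumours 2 and 5, and 79.2, 23.4 and 78.1 CPM in the high set. Floxed tumours were high in both, at 535 to 12550.3 CPM of Cyp2a4 and 57.9 to 143 CPM of Gldn. Steap2, a metal reductase, ran opposite, with 94 and 128 CPM in tumours 2 and 5 and at most 3.48 CPM in tumour 1 and the high set. In these 3 genes tumour 1 resembled the floxed tumours and not the other 2 of its set. Tumour 5 alone carried a high level of Klhl13, a ubiquitin ligase adaptor, at 545 CPM, against 15.1 to 54 CPM in the other 5.

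Within the Sult2a7-high tumours, tumour 6 differed in the clock gene Dbp, at 3.16 CPM against 91.1 and 105 CPM in tumours 3 and 4. Normal livers were just as spread, at 1.95, 4.15 and 102 CPM, and the labels give no time of day. Tumour 6 was also the highest of the 6 in the heat shock gene Hspa1b, at 214 CPM against 3.13 and 3.12 CPM in tumours 3 and 4. Tumour 4 had Cyp2a5, a coumarin hydroxylase, at 3427 CPM against 664 and 658 CPM, and little Cdh17, a cadherin of gut epithelium, at 0.538 CPM against 14.1 and 15.3 CPM. Tumour 3 was highest in Klrb1b, a lectin-like receptor of natural killer cells, at 74 CPM, a value inside the floxed range of 0.547 to 217 CPM.

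H2-Ea-ps, the E-alpha gene of the major histocompatibility complex, depends on haplotype, since C57BL/6 mice carry an allele that is not transcribed. It was at 0.0531, 0.108 and 25.7 CPM in tumours 3, 4 and 6 and at 41.3, 85.4 and 87.1 CPM in tumours 1, 2 and 5. All floxed tumours had it, at 30.5 to 85.7 CPM, and normal livers had at most 0.0407 CPM. Tumours 3 and 4 were thus as low as the C57Bl/6 livers while the other 4 deleted tumours were not, and tumour 6 was the lowest of those 4. Levels of this gene moved with the split in part, and the part of strain background in the results was not tested.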

How the data were processed

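RNA of 12 mouse liver tumours and 3 normal livers was sequenced. The authors deposited a table of raw counts, not normalized, with 23284 gene symbols and 15 libraries. The submitters' processing notes name HTSeq 0.6.1, Bowtie2 2.2.4, TopHat2 2.1.0, bcl2fastq 1.8.4 and the build mm9. The annotation, strand and how multiply matching reads were handled are not given in these notes or in the labels, so a gene and its antisense partner cannot be told apart.

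Groups came from the sample labels, and the 2 sets of Hmgb1-deleted tumours from Sult2a7 in the same libraries. These sets, the 45 gene lists (833 entries, 824 matched) and the measures were chosen with earlier results of these data known. CPM values are deposited counts scaled with edgeR's TMM factors (trimmed means) over 15 libraries. Values between the sets have no test. Floxed tumours were compared with normal livers with edgeR 4.0.16 in R 4.3.3 (filterByExpr, TMM, quasi-likelihood F test, robust dispersions, group as the only term), with Benjamini-Hochberg adjustment over all genes tested. SEs come from the F statistic. On simulated counts for that comparison (13604 genes, 200 changed, dispersion 0.1 for every gene), edgeR recovered 98% of the genes changed 4-fold. It recovered 26% of those changed 2-fold, and 6.77% of its calls were false. In the data 48.7% of genes were called, a far larger share than was changed in the simulation, so these rates need not hold there. Hmgb1 was tested with an exact permutation test of log2(CPM + 1). Within groups, pairs of libraries differed by a chi-square of at least 26.3 per degree of freedom, so none is another library sequenced again. This does not show whether libraries shared a tumour or a mouse. A count of 0 allows up to 3 counts, and this covers counting error only.

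Named genes are Sult2a7 and Hmgb1, the 10 largest gaps in each direction at a mean of at least 5 CPM, and from each list up to 4 separated members with the largest gaps or else the 2 most abundant. For each tumour, 2 genes in each direction that set it apart in its own set were added. Some are left out where a count is given, 1 gene is not reported here, and Hnf4a and H19 were chosen after their values were seen. Promoters are from RefSeq (GRCm38.p6, 27025 genes), and Sult2a7 transcripts were compared in the GENCODE annotation. Alternatives were other scalings, filters, pseudocounts and thresholds, DESeq2 1.42.0, leaving out each library, and a block for the replicate number. Floxed and normal libraries of the same number did not deviate together (correlations 0.081, -0.008 and 0.035), so the number is no pairing.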

Additional observations from a re-analysis of the deposited data

Results flagged for a closer look

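In groups of 6 tumours, the highest or lowest value was set against the spread of the other 5 by Dixon's criterion for the genes and lists described. Of 244 groups examined 27 held such a value, and chance marks about 1 group in 20. In the Hmgb1-deleted tumours these were tumour 1, highest in H19 at 4.28 and lowest in Hmgb1 at 3.40 on log2(CPM + 1), and tumour 5, highest in Klhl13 at 9.09. H19 and Klhl13 were named because 1 tumour stood apart in them, so the chance rate does not apply to these. Nor does it apply to genes named for a wide gap between the sets, in which 1 deleted tumour can hardly stand apart from the other 5.

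In the floxed tumours, used here as reference levels only, 1 tumour stood apart in the other 24. On log2(CPM + 1), floxed tumour 5 was lowest in Ccnb2 (1.29), Cdca3 (1.45), Gls2 (6.73) and Mki67 (3.08). It was highest in Col1a1 (8.74), Col3a1 (9.07), Sparc (9.29) and Tubb2b (3.62). Floxed tumour 1 was lowest in Cyp2b9 (1.26), Cyp2c29 (4.90), Dbp (1.10), Hpd (4.39), Klrb1b (0.629) and Spp1 (5.43), and floxed tumour 6 was lowest in Tspan8 (3.31).

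For list levels, floxed tumour 5 was lowest in glucuronosyl- and glutathione transferases (-1.82), urea cycle (-2.27), mitosis (0.50) and complement and coagulation (-1.52). It was highest in glycolysis (2.01) and extracellular matrix (2.82). Floxed tumour 6 was highest in pericentral genes (-1.18) and lowest in the HMGB family and HMGB1 receptors (0.20), and floxed tumour 1 was highest in sex-chromosome genes (0.40). The low mitosis and high matrix level of floxed tumour 5 set the ends of the floxed ranges given beside the Hmgb1-deleted tumours.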

How the results depend on the processing

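The 2 sets had the same members under each scaling tried. The counts of separated genes depended on the processing. They were 143 higher and 99 lower, and 130 and 108 with RLE factors, 50 and 234 on library totals, 190 and 175 with a pseudocount of 0.1, 2528 and 2028 with no gap asked, and 13 and 5 with a log2 gap of 2. With 1 Hmgb1-deleted tumour left out they ran from 154 to 326 higher and from 108 to 343 lower. On library totals the positions of tumours 2 and 5 moved to 0.471 and 0.439 over genes lower in floxed tumours and to -0.222 and -0.144 over genes higher in them. Lists with the Sult2a7-high tumours all above numbered 22 of 45, or 15 on library totals. Those with them all below numbered 8, or 12 on library totals, and 0 lists turned. The median over all genes also lay above with trimmed-mean factors, by very little, and below on library totals, so a list can take its class from the scaling. Some genes are in several lists, and the sulfotransferase list, among those above, holds Sult2a7 itself. The library totals leave out a factor that differs between the sets, and the part of that factor in the results was not tested.

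Of floxed against normal calls, 3437 higher and 3277 lower, the replicate block over numbers 1 to 3 left 3333 and 3246, and the same libraries without the block, a fit chosen after seeing the data, gave 3513 and 3373. DESeq2 gave 3925 and 3501, and leaving out 1 library gave 2336 to 3526 and 2524 to 3503. Over 74 named genes, 984 of 1034 alternative values kept their direction and call, 19 lost the call, 24 gained it and 7 reversed, all uncalled. Dbp turned to -0.12 over numbers 1 to 3 and ran from -0.10 to 3.995 with 1 library left out. Ddx3y turned to 0.0216 with the block and 0.00898 over numbers 1 to 3 and ran from -0.28 to 0.0417 with 1 library left out, and Hspa1b turned to -0.20 with the block. The cause was not tested. With 3 tumours a set and a split taken from the same libraries, no test between the sets was run, and genes under 0.161 CPM are at or below the limit of 3 counts.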
